A study of Mus musculus with 2 samples.

Results

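Hepatic immune cells of the first capture library were compared by their CD4 T cell transcripts. Cells were taken when they held at least 1 unique molecular identifier (UMI, the count of a distinct captured transcript) of Cd4 and at least 1 of Cd3e, and no UMI of Cd8a, Cd8b1, Klrb1c or Cd79a. The rule found 689 of the 10026 cells of this library, out of 34137 cells in both libraries of the series. Of these, 353 carry the name TG in the authors' cell metadata, which name 4647 cells of the library as TG. The other 336 carry no genotype name and come from 5379 such cells. The library pooled CD45+ liver cells of dnTGFβRII (TG) mice and IFN-γ ARE-Del-/- mice, both on the C57BL/6 background and 10 weeks old per the labels. TG mice express a dominant negative TGF-β receptor type II from the Cd4 promoter, which drives the transgene in T cells. IFN-γ ARE-Del-/- mice lack the AU-rich element in the 3' untranslated region of Ifng. The cells without a name cannot be called IFN-γ ARE-Del-/- cells, since TG cells and multiplets that the authors removed may be among them, and they are described here as unnamed cells. The number of mice per genotype is not given in the sources used here. WT cells chosen by the same rule (507 cells) came from the second library, where genotype and library cannot be told apart, and their values are set beside the others as a description.

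CD4 T cells recognise peptides on MHC class II and differentiate into helper subsets that are named for their cytokines and transcription factors, or into regulatory T cells under Foxp3. IFN-γ, the cytokine of Th1 cells, NK cells and NKT cells, binds a receptor whose signal reaches GAS elements in the promoters of Irf1, guanylate-binding proteins (Gbp genes) and immunity-related GTPases (Irg genes), which restrict intracellular pathogens. Interferon regulatory factors bind a related element, the ISRE. TGF-β restrains T cell activation and effector differentiation, maintains regulatory T cells and induces CD103, the integrin subunit encoded by Itgae.

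Promoter letters of some genes of the interferon comparison are shown first. Iigp1 and Gm4951, the GTPases with the highest ratios, are not among them. GAS was searched as TTCNNNGAA and ISRE as a pair of GAAA repeats with any 2 bases between them, each on both strands, in the 250 bases before any annotated start of a gene (RefSeq sequences, GRCm38.p6). Capitals mark the matches, and each stretch reads 5′ to 3′ on the strand of the gene. The 3 GTPase promoters Igtp (chr11:58199507-58199535, plus strand), Irgm2 (chr11:58214898-58214926, plus strand) and Tgtp2 (chr11:49064269-49064297, minus strand) are shown because a GAS and an ISRE match lie next to each other in all 3. Irf1 (chr11:53769914-53769942, plus strand), Gbp2 (chr3:142620594-142620623, plus strand) and Socs1 (chr16:10785597-10785626, minus strand) are shown as a transcription factor, an abundant GTPase and the feedback inhibitor of the receptor, with a GAS match in Irf1, an ISRE match in Gbp2 and overlapping ISRE matches in Socs1.
Igtp: ccatTTCTAGGAActGAAACTGAAAgctg
Irgm2: ccatTTCCAGGAActGAAACTGAAAgctg
Tgtp2: ccatTTCCAGGAAtcGAAACCGAAAccta
Irf1: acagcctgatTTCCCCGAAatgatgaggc
Gbp2: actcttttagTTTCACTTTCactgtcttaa
Socs1: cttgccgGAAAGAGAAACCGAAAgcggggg
Of the 27025 genes in the promoter table, 8.13% held a GAS match and 3.46% an ISRE match. Among the 9 assessed IFN-γ-induced GTPases found in that table, 5 held a GAS match and 8 an ISRE match. Of the 16 assessed genes of the IFN-γ ligand, receptor and mediator list found there, 5 held a GAS match and 3 an ISRE match. A match of letters is a description of the window and does not show that a factor binds there.

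The label CD4 T was checked against markers that the rule did not use. The CD4 antibody had a median count of 199 in unnamed and 197 in TG cells, the CD8b antibody 2 in both sets and the TCR-beta antibody 47 and 43. Trac, the constant segment of the T cell receptor alpha chain, stood at 1380 counts per 1000000 UMIs (CPM) in unnamed cells and 1330 CPM in TG cells. The names that the authors gave the TG cells do not all fit the label. They called 132 of the 353 cells NKT (37.4%), 108 CD4 T (30.6%), 80 CD8αβ T (22.7%) and 21 NK (5.95%), and the remaining 12 cells carry other names. The TG set is therefore described below also by these names. No such names exist for the unnamed cells, so the unnamed set can hold the same kinds of cell in shares that are not known. Limits by name below were put on the TG cells alone, so they do not compare like cells.

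Both sets were sequenced to a similar depth. The unnamed cells held 1391211 UMIs in all and a median of 3201.5 per cell (range 1348 to 32989), and the TG cells held 1449473 in all and a median of 3571 (1322 to 15438). The median share of mitochondrial UMIs was 4.90% in unnamed cells and 4.57% in TG cells. Doublets were marked in 3 unnamed cells and 1 TG cell, and 267 cell barcodes occur in both libraries, 19 of them among the 689 cells. Of the unnamed cells, 89 held just 1 UMI of Cd4 and 45 just 1 of Cd3e, against 70 and 32 TG cells. At the other edge of the rule, a lone UMI of Klrb1c, which encodes NK1.1, kept 32 unnamed and 81 TG cells out, and a lone UMI of Cd79a kept 70 and 86 out.

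All UMIs of a set were summed, and ratios are given as the log2 of unnamed over TG CPM. With 1 library no test between genotypes was possible, and the 95% intervals (exact Poisson for CPM, exact conditional binomial for ratios) cover counting error only, not the spread between mice. Genes with at least 50 UMIs over both sets were assessed. Of these 6952 genes, 138 were at least 2-fold higher in unnamed cells (1.99%) and 65 at least 2-fold lower (0.935%). Without cells in which over 1% of UMIs came from B, myeloid or dendritic markers, 57 were higher and 69 lower of 6661 genes. Against TG cells named CD4 T alone, 304 were higher and 59 lower of 5462. The median log2 ratio of all 6952 genes was -0.02. The shares of 1.99% and 0.935% are the background against which the counts of each gene list are read.

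The transgene encodes a dominant negative form of the human counterpart of Tgfbr2 (chr9:116084293-116175360, minus strand, GRCm38), and the Tgfbr2 count was lower in unnamed cells. Tgfbr2 held 232 UMIs in unnamed cells (167 CPM, 146 to 190) and 559 in TG cells (386 CPM, 354 to 419), which is a log2 ratio of -1.21 (-1.44 to -0.99). At least 1 UMI was found in 42.9% of unnamed and 69.7% of TG cells. After each cell was thinned to 1000 UMIs these shares were 17.9% and 31.4%, a difference of -13.6 percentage points (Newcombe interval -19.8 to -7.17). The level in unnamed cells was close to the 177 CPM of WT cells of the second library. The 4 larger groups of TG cells by authors' name all stood above it, at 361 CPM in cells named CD4 T, 361 CPM in CD8αβ T, 420 CPM in NK and 449 CPM in NKT cells. The same contrast in other cells of this library gave a log2 ratio of -0.97 (-1.20 to -0.75) in CD8 T cells and -0.01 (-0.17 to 0.14) in B cells, which do not use Cd4. The transgene is of human origin, and whether its reads count towards mouse Tgfbr2 is not given in the sources used here, so the part of the transgene in these values was not tested.

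Of 26 TGF-β signalling genes 15 were assessed. Tgfbr2 alone was at least 2-fold lower and Pmepa1 alone at least 2-fold higher in unnamed cells, and the list's median log2 ratio was 0.08, which was -0.12 against TG cells named CD4 T and -0.10 without TG cells named NK or CD8 T. Pmepa1, a TGF-β target that feeds back on the pathway, held 38 UMIs (27.3 CPM) in unnamed and 12 (8.28 CPM) in TG cells, a log2 ratio of 1.72 (0.76 to 2.79). Skil, a TGF-β-induced corepressor of SMAD proteins, stood at 64.0 against 35.9 CPM, a log2 ratio of 0.83 (0.32 to 1.36), and Tgfbr1, the signalling partner of Tgfbr2, at 29.5 against 15.9 CPM (0.89, 0.12 to 1.70). With TG cells named CD4 T alone the ratio was 3.49 for Tgfbr1 on 42 UMIs, 1.03 for Skil and 1.80 for Pmepa1. WT cells of the second library held 22.6 CPM of Pmepa1, 65.0 CPM of Skil and 21.2 CPM of Tgfbr1. For Pmepa1 and Skil the unnamed value was the nearer to WT. Smad3, which carries the receptor signal to the nucleus, went the other way at 65.4 against 85.5 CPM, with an interval that reached 0 (-0.39, -0.79 to 0.01), and the inhibitory Smad7 stood at 97.0 against 80.7 CPM (0.27, -0.10 to 0.64). Both changed sign with the TG cells taken, Smad3 to 0.40 against those named CD4 T and Smad7 to -0.16 without those named NK or CD8 T.

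**Figure D1:**
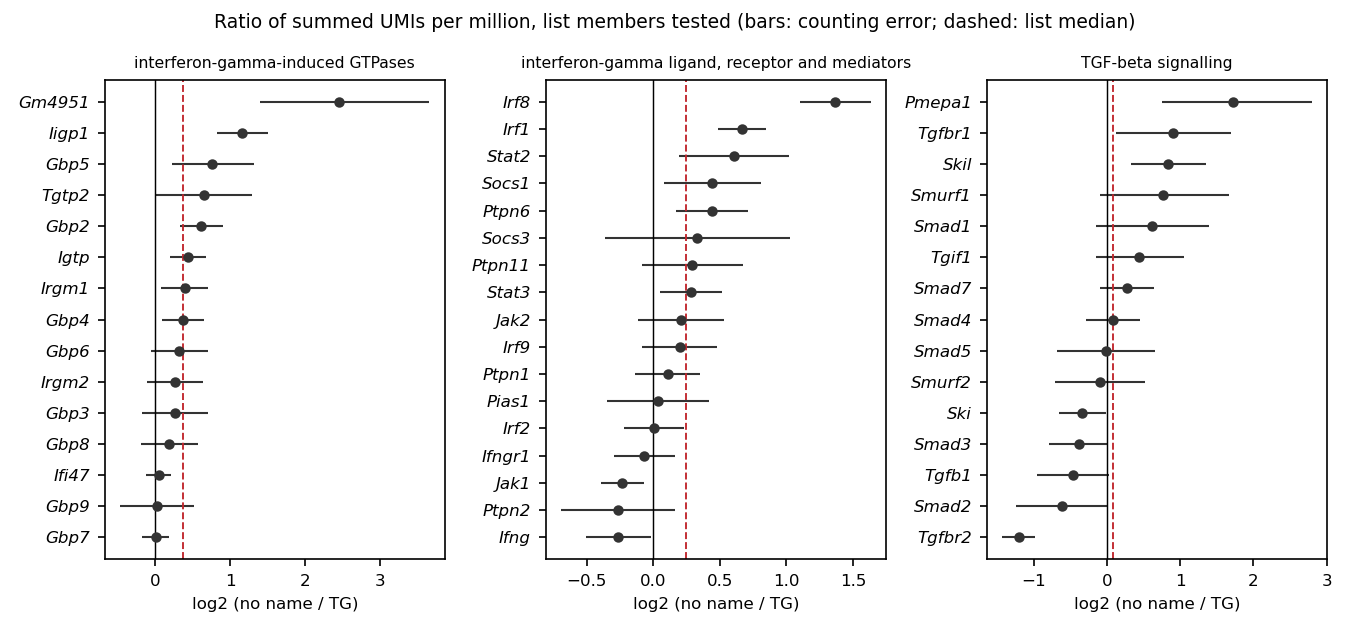
Log2 ratio of unnamed over TG cells (x axis) for the assessed members of 3 gene lists (y axis), with bars for the 95% counting interval and a dashed line at the list median, which in the middle panel includes 1 member not plotted. No IFN-γ-induced GTPase lies below 0, with Iigp1 at 1.16 and Gm4951 at 2.44 the highest, while Tgfbr2 at -1.21 lies furthest from 0 on the lower side of the TGF-β list.

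Some targets of IFN-γ were higher in unnamed cells than in all TG cells and others were alike, while the transcript of the cytokine was lower. Irf1 (chr11:53770014-53778374), the regulatory factor with the GAS letters shown above, held 654 UMIs in unnamed cells (470 CPM, 435 to 508) and 430 in TG cells (297 CPM, 269 to 326), which is a log2 ratio of 0.66 (0.49 to 0.84). WT cells of the second library held 299 CPM of Irf1.

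Of 20 IFN-γ-induced GTPases 15 were assessed, and the median of their log2 ratios was 0.37, or 0.17 against TG cells named CD4 T. No member lay below 0, 2 were at least 2-fold higher and 0 at least 2-fold lower, where 1.99% and 0.935% of all genes were. Iigp1, an Irg that coats the vacuoles of parasites, held 236 UMIs (170 CPM, 149 to 193) in unnamed and 110 (75.9 CPM, 62.4 to 91.5) in TG cells, which is a log2 ratio of 1.16 (0.83 to 1.50), and 37.2 CPM in WT cells. The related gene Gm4951 held 47 and 9 UMIs (2.44, 1.40 to 3.66) and 0 in WT cells. Against TG cells named CD4 T alone the log2 ratios were 0.73 for Iigp1 and 0.88 for Gm4951, both short of 2-fold, and Irgm2, Gbp7 and Tgtp2 lay below 0 at -0.19, -0.07 and -0.02. Of the 3 GTPases shown above with joined GAS and ISRE letters, Igtp stood at 245 against 181 CPM (0.43, 0.20 to 0.67), while the interval of Irgm2 crossed 0 (0.26, -0.11 to 0.63) and that of Tgtp2 began next to it (0.64, 0.01 to 1.29). Tgtp1 also holds joined letters and was not shown. Gbp2, which assembles on pathogen membranes, stood at 179 against 117 CPM (0.61, 0.32 to 0.90). Abundant members of the same families, Gbp7 and Ifi47, were alike in both sets, with log2 ratios of 0.00 (-0.18 to 0.18) and 0.04 (-0.12 to 0.21). Near-identical Irg and Gbp copies can share reads, so the split of UMIs between them is uncertain.

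Ifng itself (chr10:118441046-118445892) held 251 UMIs in unnamed cells (180 CPM, 159 to 204) and 314 in TG cells (217 CPM, 193 to 242), a log2 ratio of -0.26 (-0.51 to -0.02), and 139 CPM in WT cells. Its share of cells thinned to 1000 UMIs was 16.7% and 17.0%, a difference of -0.331 points (-5.92 to 5.29). Among TG cells the level was 160 CPM in those named CD4 T, 198 CPM in CD8αβ T and 289 CPM in NKT cells. Unnamed cells stood between the first of these groups and the others. The log2 ratio of Ifng was 0.18 against the TG cells named CD4 T and -0.30 without those named NK or CD8 T. Of the remaining ligand, receptor and mediator genes, Ifngr1, the ligand-binding receptor chain, was alike (-0.07, -0.30 to 0.16), and Socs1, the feedback inhibitor, stood at 108 against 79.3 CPM (0.44, 0.08 to 0.81). Without TG cells named NK or CD8 T the ratio of Socs1 was 0.07 and the median of these genes 0.02, against 0.24 with all TG cells. Irf8, at 295 against 115 CPM (1.36, 1.1 to 1.63), was the 1 member of the 18 assessed genes (of 19) that was at least 2-fold higher, and it was found in 16.4% and 14.7% of cells. Irf8 is also a factor of dendritic and B cells, whose markers are given below.

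With all TG cells taken, genes of MHC class I antigen processing and those stimulated by type I interferon differed less than the GTPases. The median log2 ratio was 0.09 over 22 assessed genes (of 23) of MHC class I antigen processing, with 0 genes past 2-fold in either direction, and B2m, the light chain of MHC class I, was at 5335 against 5339 CPM (-0.00, -0.05 to 0.04). Tap1, the peptide transporter, stood at 341 against 296 CPM (0.20, 0.01 to 0.39). Over 35 assessed genes (of 48) stimulated by type I interferon the median was -0.01. These medians were 0.06 and -0.33 against TG cells named CD4 T, where that of the GTPases was 0.17. In that comparison the type I genes differed more than the GTPases. The limit was put on the TG cells alone and all unnamed cells were kept, so like cells are not compared.

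The same contrast was made in CD8 T cells (550 unnamed, 330 TG) and B cells (1240 unnamed, 1061 TG) of this library, which do not share cells with the CD4 set but share the library and the meaning of the names. The log2 ratio of Irf1 was 0.27 (0.11 to 0.43) in CD8 T cells and 0.72 (0.63 to 0.81) in B cells, against 0.66 in CD4 cells. That of Iigp1 was 2.32 (1.74 to 2.94) and 2.68 (2.41 to 2.95), against 1.16. The median of the GTPase list was 0.55 in CD8 T cells and 1.05 in B cells, and the median of the MHC class I list was 0.39 and 0.40. The CD4 cells had the smallest of the 3 values for Iigp1 and for both lists, and CD8 T cells for Irf1. TG cells chosen by the CD4 rule held more Iigp1 (75.9 CPM) than TG CD8 T cells (18.7 CPM) or TG B cells (35.0 CPM). Ifng differed in the other direction in CD8 T cells, at 304 CPM in unnamed and 156 CPM in TG cells (0.96, 0.74 to 1.18).

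**Figure D2:**
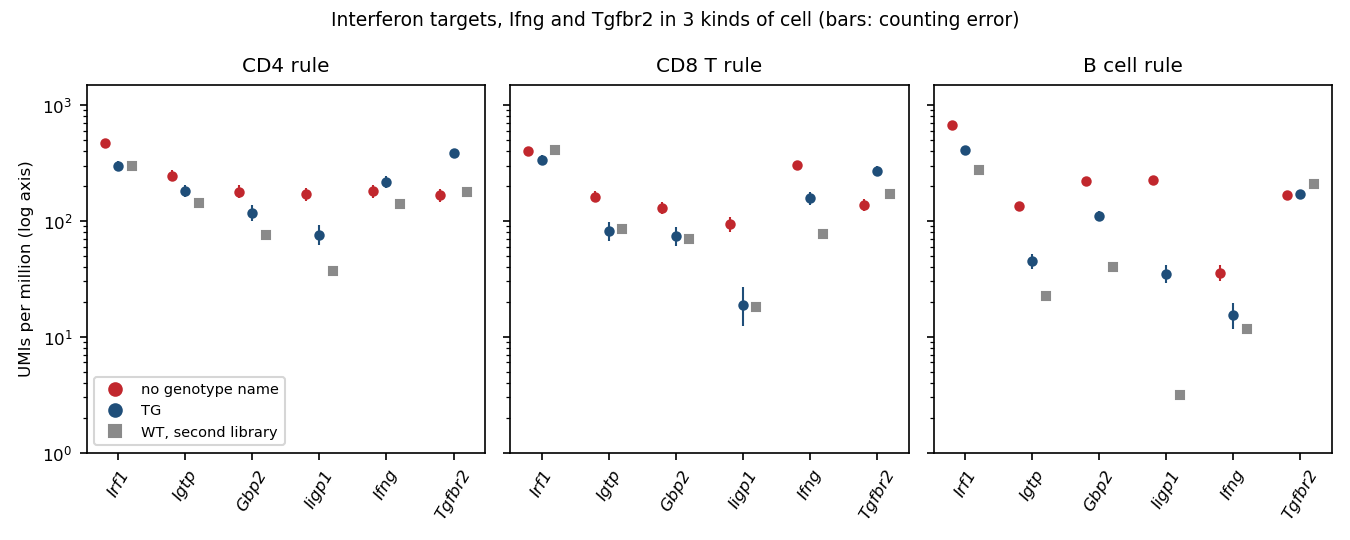
CPM (log axis) of 6 genes in unnamed, TG and WT cells chosen by the CD4, CD8 T and B cell rules, with 95% counting intervals for the first library and WT cells of the second library as squares. Irf1, Igtp, Gbp2 and Iigp1 are higher in unnamed than in TG cells in all 3 panels, whereas Tgfbr2 is lower in unnamed T cells and level in B cells.

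Several genes of naive and circulating T cells were higher in unnamed cells, while abundant members were not. Of 25 genes of naive and circulating T cells 23 were assessed, of which 6 were at least 2-fold higher in unnamed cells and 0 at least 2-fold lower, with a median log2 ratio of 0.42. Ccr7, the receptor that guides T cells to lymph nodes, held 110 UMIs (79.1 CPM) in unnamed and 18 (12.4 CPM) in TG cells, a log2 ratio of 2.67 (1.94 to 3.48). Igfbp4, a secreted protein that marks naive CD4 T cells, stood at 152 against 23.5 CPM (2.70, 2.17 to 3.27) and Actn1, a cytoskeletal crosslinker, at 152 against 48.3 CPM (1.66, 1.26 to 2.07). WT cells held 94.9 CPM of Ccr7, 317 CPM of Igfbp4 and 263 CPM of Actn1, in each case more than the unnamed cells. Tcf7, a factor of naive and memory T cells, was alike (0.07, -0.12 to 0.26) and Il7r, the receptor for the survival cytokine IL-7, was lower in unnamed cells at 530 against 701 CPM (-0.40, -0.54 to -0.26). The list summed to 5834 CPM in unnamed, 5792 CPM in TG and 8085 CPM in WT cells.

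These genes also separated the TG cells by name. Ccr7 stood at 28.8 CPM in TG cells named CD4 T, 8.60 CPM in CD8αβ T and 6.01 CPM in NKT cells, and Igfbp4 at 73.2 CPM, 6.45 CPM and 0 CPM. Against TG cells named CD4 T alone the log2 ratio was 1.46 for Ccr7, 1.06 for Igfbp4 and 0.91 for Actn1, and the median of the list changed its sign to -0.11. Tcf7 and Il7r were lower in that comparison, with log2 ratios of -0.68 and -0.84. That comparison limits the TG cells alone, so it does not compare like cells. The CD8 T cells of the same library had the opposite direction for the list, with a median log2 ratio of -0.49.

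Genes of effector memory T cells were lower in unnamed cells by small amounts, with 23 of 30 members below 0, all assessed, 0 past 2-fold and a median log2 ratio of -0.19. The median was -0.06 without TG cells named NK or CD8 T and -0.40 against those named CD4 T, where Cd44 was at -0.17 and Id2 at -0.44. Cd44, the adhesion receptor of activated T cells, stood at 300 against 401 CPM (-0.42, -0.60 to -0.24), and its antibody had a median count of 143 in unnamed and 179 in TG cells. Cxcr6, a chemokine receptor that holds lymphocytes in liver sinusoids, stood at 214 against 353 CPM (-0.72, -0.93 to -0.51). Its level among TG cells was 641 CPM in those named NKT and 282 CPM in those named CD4 T. Id2, a regulator of effector lymphocytes, stood at 975 against 1623 CPM (-0.73, -0.83 to -0.64). For all 3 genes WT cells held values nearer to the unnamed than to the TG cells, at 322, 247 and 797 CPM.

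Among the helper programmes, Th1 genes were lower in unnamed cells when all TG cells were taken. Their median stayed lower without TG cells named NK or CD8 T (-0.48), but not against the TG cells named CD4 T. The median log2 ratio of 17 assessed Th1 genes (of 20) was -0.51, with 3 members at least 2-fold lower and Eomes at least 2-fold higher, and the median was -0.02 against TG cells named CD4 T. Tbx21, which encodes T-bet, the master factor of Th1 cells, held 134 UMIs (96.3 CPM) in unnamed and 254 (175 CPM) in TG cells, a log2 ratio of -0.86 (-1.18 to -0.56). Il12rb2, the signalling chain of the IL-12 receptor that sustains Th1 cells, held 24 UMIs (17.3 CPM) against 101 (69.7 CPM), with a log2 ratio of -2.01 (-2.72 to -1.36), and Il12rb1 followed with -1.1 (-1.76 to -0.46). Against TG cells named CD4 T alone, Il12rb2 stayed lower (-1.37) and Tbx21 did not (0.12). Without TG cells named NK or CD8 T both stayed lower, at -2.12 for Il12rb2 and -0.53 for Tbx21.

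Gata3, the Th2 factor, stood at 247 against 291 CPM (-0.24, -0.45 to -0.03), and Bcl6, the factor of follicular helper cells, at 15.8 against 16.6 CPM (-0.07, -0.97 to 0.83). Against TG cells named CD4 T alone the log2 ratio of Gata3 was -0.95.

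Cytotoxic genes were split. Over 17 assessed members (of 20) the median log2 ratio was -0.36, with 2 at least 2-fold higher and 3 at least 2-fold lower in unnamed cells. The median turned to 0.99 against TG cells named CD4 T and to 0.66 without TG cells named NK or CD8 T. Among TG cells the list summed to 16803 CPM in those named CD8αβ T, 34044 CPM in NK and 5243 CPM in CD4 T. Both limits drop the first 2 of these groups and keep all unnamed cells, so they do not compare like cells. Gzma, a granule protease, held 648 UMIs (466 CPM, 431 to 503) in unnamed and 2634 (1817 CPM, 1748 to 1888) in TG cells, which is a log2 ratio of -1.96 (-2.09 to -1.84). Its UMIs in TG cells lay in those that the authors named otherwise, with 4451 CPM in cells named CD8αβ T and 6027 CPM in NK, against 209 CPM in CD4 T and 160 CPM in NKT cells. Against TG cells named CD4 T the ratio reversed to 1.15. A Gzma UMI was also found in 41.1% of unnamed B cells (median depth 2838.5 UMIs) and 38.7% of TG B cells (3040 UMIs), which should lack the gene, so the 41.1% of unnamed CD4 cells with one is not above that background. How much of the Gzma level of unnamed cells is background was not tested. Ccl3 and Ccl4, chemokines that are released on activation, went the other way with log2 ratios of 1.38 (0.97 to 1.80) and 1.34 (1.07 to 1.60), and Gzmk, a granzyme of early effector cells, with 0.91 (0.43 to 1.41). With TG cells named CD4 T alone these were 1.32 for Ccl3, 2.35 for Ccl4 and 2.82 for Gzmk. After thinning, Gzmk was found in 7.44% of unnamed and 4.25% of all TG cells, a difference of 3.19 points (-0.35 to 6.90).

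**Figure D3:**
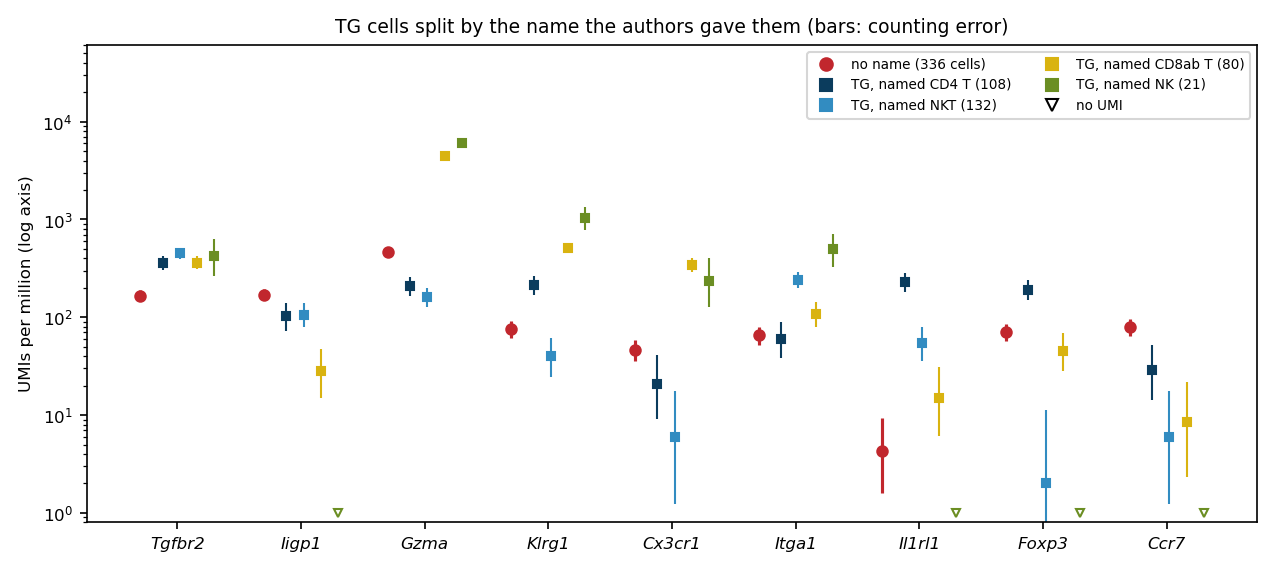
CPM (log axis) of 9 genes in the 336 unnamed cells and in TG cells split by their cell type name, with 95% counting intervals and open triangles where no UMI was found. Tgfbr2 lies above the unnamed value in all 4 TG groups, Gzma, Klrg1 and Cx3cr1 are highest in cells named CD8αβ T or NK, and Il1rl1 and Foxp3 in cells named CD4 T.

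Klrg1, an inhibitory lectin receptor of terminal effector and of some regulatory T cells, stood at 75.5 CPM in unnamed and 273 CPM in TG cells (-1.85, -2.18 to -1.54). It was found in 4.46% of unnamed and 17.3% of TG cells thinned to 1000 UMIs, against 1.29% and 1.60% of B cells. Unlike Gzma it stayed lower against TG cells named CD4 T alone, which held 212 CPM, with a log2 ratio of -1.49, and the ratio was -0.54 without TG cells named NK or CD8 T. Ncr1, the NK receptor NKp46, was lower as well (-2.61, -3.68 to -1.68), but the ratio was -0.13 without TG cells named NK or CD8 T, and the 2.08% of unnamed cells with a UMI was below the 5.65% of unnamed B cells.

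Inhibitory checkpoint genes were higher in unnamed cells than in all TG cells, with 9 of 11 assessed members (of 14) above 0, 3 at least 2-fold higher and a median log2 ratio of 0.64. Tox, a nuclear factor of chronically stimulated T cells, stood at 103 against 40.7 CPM (1.34, 0.89 to 1.80), and Pdcd1, which encodes PD-1, at 38.8 against 16.6 CPM (1.23, 0.51 to 1.99). Lag3, a receptor for MHC class II, and Tigit, a receptor for nectin-like ligands, had log2 ratios of 0.89 (0.32 to 1.48) and 0.82 (0.26 to 1.40). WT cells held 62.4 CPM of Tox and 11.3 CPM of Pdcd1. The ratios against TG cells named CD4 T were 0.60 for Tox, 0.57 for Pdcd1 and 0.08 for Tigit. Thinning each cell to 1000 UMIs left 3 assessed members with a median of -0.15. The same contrast in CD8 T cells was larger, at 2.71 (2.33 to 3.11) for Tox and 4.93 (3.79 to 6.39) for Pdcd1. The PD-1 antibody had a median of 2 in both sets and took 0.212% of antibody counts in unnamed and 0.148% in TG cells (0.52, 0.39 to 0.64).

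Cells with a transcript of Foxp3, the factor of regulatory T cells, took similar shares of both sets. At least 1 Foxp3 UMI was found in 29 unnamed cells (8.63%) and 25 TG cells (7.08%), against 0.242% and 0.0943% of B cells. After thinning, the shares were 5.06% (2.97% to 7.98%) and 4.25% (2.40% to 6.91%), a difference of 0.81 points (-2.43 to 4.14). The TG share depends on which cells are counted. Foxp3 was found in 18.5% of TG cells named CD4 T, 5% of those named CD8αβ T and 0.758% of those named NKT. Against TG cells named CD4 T the thinned difference was -6.98 points. Of 14 assessed regulatory T cell genes (of 24), 0 were at least 2-fold higher and 2, Klrg1 and Il1rl1, at least 2-fold lower. Of their UMIs in TG cells, only 17.5% for Klrg1 and 6.61% for Il1rl1 lay in cells with a Foxp3 UMI. The median log2 ratio of the 14 genes was -0.34, and -1.06 against TG cells named CD4 T. The values of -6.98 and -1.06 limit the TG cells alone and keep all unnamed cells, so they do not compare like cells.

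Within the cells with a Foxp3 UMI, the genes of regulatory T cells were set out by their role. These values rest on 29 unnamed and 25 TG cells with 133856 and 112624 UMIs, and some of these TG cells are not named CD4 T. Itgae, the TGF-β-induced subunit of CD103, held 28 UMIs in 13 of the unnamed cells and 0 in the TG cells. It was 7.85-fold higher when 3 counts over the set are taken as the floor. The counting interval of its log2 ratio began at 2.58. Of the 28 UMIs 50% lay in 3 cells, and cells without a Foxp3 UMI held 7 in the unnamed and 9 in the TG set. The CD103 antibody had a median count of 12 in unnamed (range 0 to 153) and 2 in TG cells with Foxp3 (0 to 97). The medians of the protein pointed the same way as the transcript, but the ranges overlapped. WT cells with Foxp3 held 11 Itgae UMIs in 44 cells (71.4 CPM) and a median CD103 count of 2.5, lower than the unnamed cells.

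Among surface receptors in cells with Foxp3, Tnfrsf18, Il2ra, Klrg1, Tnfrsf4 and Ctla4 were lower in unnamed cells, while the intervals of Tnfrsf9, Icos, Nrp1 and Izumo1r spanned 0. Tnfrsf18, which encodes GITR (CD357), held 29 UMIs (217 CPM) against 83 (737 CPM), a log2 ratio of -1.77 (-2.43 to -1.14). Of the 83 UMIs 42.2% lay in 3 cells, and the CD357 antibody had a median of 74 against 119. Il2ra, the high-affinity IL-2 receptor chain, held 29 against 62 UMIs (-1.35, -2.03 to -0.69), with 50% of the latter in 3 cells, and Klrg1 held 7 against 69 (-3.55, -4.92 to -2.43), although 3 cells held all 7. Tnfrsf4, the costimulatory receptor OX40, held 23 against 58 UMIs (-1.58, -2.35 to -0.86), although 60.3% of the latter lay in 3 cells. Ctla4, the inhibitory receptor for CD80 and CD86, held 45 against 58 (-0.62, -1.21 to -0.03), with 46.6% of the latter in 3 cells. Over the whole sets a Ctla4 UMI was found in 15.5% of unnamed and 10.5% of TG cells. After thinning these shares were 5.95% and 4.53%, a difference of 1.42 points (-1.98 to 4.93). Tnfrsf9, the costimulatory receptor 4-1BB, had an interval that spanned 0 (-0.58, -1.37 to 0.19), and the costimulatory receptor Icos was at 1038 against 888 CPM (0.23, -0.16 to 0.61). Ikzf2, which encodes the regulatory T cell factor Helios, was alike at 1016 against 1101 CPM (-0.12, -0.48 to 0.25). Il10, the suppressive cytokine, held 2 and 13 UMIs, with 84.6% of the latter in 3 cells. Tgfbr2 was lower in these cells too, at 105 against 391 CPM (-1.90, -2.88 to -1.01). For Iigp1 the interval spanned 0 (-0.50, -1.41 to 0.40).

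All assessed genes were then ranked by the size of their ratio. Il1rl1 (chr1:40429570-40465415), the receptor for the alarmin IL-33 on Th2 and tissue regulatory T cells, was the lowest, with 6 UMIs in 3 unnamed cells (4.31 CPM) against 121 in 36 TG cells (83.5 CPM), a log2 ratio of -4.27 (-5.75 to -3.11). It was concentrated in TG cells named CD4 T (228 CPM), and 113 of its 121 UMIs lay in cells without a Foxp3 UMI. WT cells held 28.5 CPM. Lztfl1, a ciliary trafficking gene, was lower with 32 against 139 UMIs (-2.06, -2.66 to -1.50) and S1pr5, a receptor for tissue exit of NK and effector cells, at 12.2 against 53.1 CPM (-2.12, -2.97 to -1.35), which turned to 0.64 against TG cells named CD4 T. Other genes of the 12 lowest were Sulf2, Tbkbp1, Gpnmb, Cdan1 and Cpne7, with log2 ratios from -2.06 to -1.67. With TG cells named CD4 T alone, Sulf2 and Tbkbp1 turned to 0.46 and 0.14 and Cdan1 moved to -0.36, short of 2-fold, while Gpnmb and Cpne7 stood at -1.45 and -1.32.

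Among the 12 highest, T cell genes kept their ratio when cells with transcripts of other types were left out. Nr4a2, an orphan nuclear receptor induced by antigen receptor signals, held 44 UMIs against 7 (2.71, 1.55 to 4.11), and Eomes, a T-box factor of memory and cytotoxic T cells, 99 against 21 (2.30, 1.61 to 3.05). After thinning, Nr4a2 was found in 2.08% of unnamed and 0.85% of TG cells, a difference of 1.23 points (-0.71 to 3.46). In thinned B cells its shares were 1.69% and 0.66%. Eomes was found in 10.7% of unnamed and 3.12% of TG cells, against 2.58% and 2.17% of B cells, and in WT cells it stood at 17.9 CPM, near the 14.5 CPM of TG cells. Rgs16, a regulator of G protein signals, held 42 UMIs against 9 (2.28, 1.22 to 3.51). Without cells in which over 1% of UMIs came from B, myeloid or dendritic markers, the log2 ratios were 3.03 for Nr4a2, 2.42 for Eomes and 2.34 for Rgs16. Clec12a, an inhibitory lectin receptor of myeloid cells, had 2.19 there on 25 UMIs against 2.44 with all cells. Ccnd1, which encodes cyclin D1, had 3.51 there on 11 UMIs against 2.19 with all cells. Others among the 12 had lower ratios. Under the same exclusion Cox6a2 went from 2.44 to 0.19, Sdc4 from 2.74 to 0.70, Plaur from 2.25 to 0.99, Rpgrip1 from 2.20 to 1.08 and Cd180, a receptor of B and myeloid cells, from 2.18 to 1.19. After the exclusion 6 UMIs of Cd180, 8 of Cox6a2, 17 of Sdc4, 20 of Rpgrip1 and 22 of Plaur were left in both sets, so these ratios and that of Ccnd1 are loose.

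**Figure D4:**
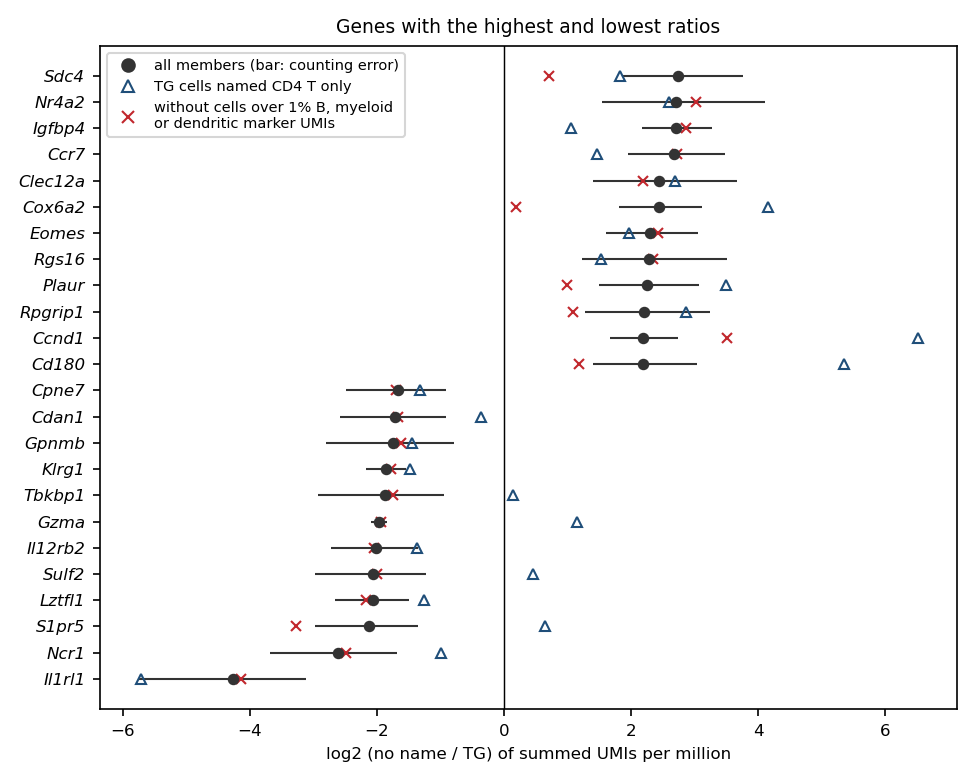
Log2 ratio of unnamed over TG cells (x axis) for the 12 genes with the highest and the 12 with the lowest ratios (y axis), with bars for the 95% counting interval, triangles for TG cells named CD4 T only and crosses without cells that hold over 1% of B, myeloid or dendritic marker UMIs. Ccnd1 and Cd180 have no UMI in TG cells named CD4 T, so their triangles rest on a pseudocount of 0.5, and Gzma, S1pr5, Sulf2 and Tbkbp1 change side when those cells alone are taken.

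Transcripts of other cells moved with the comparison. Of the 10 assessed B cell markers (of 16) 6 were at least 2-fold higher in unnamed cells and 0 lower, with a summed level of 5328 CPM in unnamed and 2303 CPM in TG cells. Of the 11 assessed myeloid and dendritic markers (of 22) 5 were at least 2-fold higher and 0 lower, at 1898 against 1363 CPM. Over 1% of UMIs came from these markers in 27 unnamed cells (8.04%, 5.36% to 11.5%) and 8 TG cells (2.27%, 0.98% to 4.42%). Those 27 cells held 63.9% of the Cd74 UMIs of the unnamed set, Cd74 being the invariant chain of MHC class II. Markers of CD8 T, NK and NKT cells had a median log2 ratio of -0.57 over 12 assessed genes (of 19), which turned to 2.52 against TG cells named CD4 T and to 0.95 without TG cells named NK or CD8 T. Both limits were put on the TG cells alone, so neither value compares like cells. Markers of hepatocytes, erythrocytes and platelets summed to 20.1 and 9.66 CPM. The part of other cells in the remaining results was not tested beyond the exclusions given here. Without the 27 and 8 cells the log2 ratio of Irf1 was 0.45, of Iigp1 1.02, of Tgfbr2 -1.19 and of Irf8 0.77.

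The antibody counts describe the surface of the same cells. CD49a, the collagen-binding integrin subunit of liver-resident lymphocytes, had a median count of 4 in unnamed cells (quartiles 2 and 18) and 29 in TG cells (5 and 103). CD49b, another collagen-binding integrin subunit, found on NK cells and some T cells, had a median of 4 against 18, and NK-1.1 of 3 against 7. Among TG cells the CD49a median was 68 in those named NKT, 40 in CD8αβ T and 5 in CD4 T, while the CD49b median was 15.5 in those named CD4 T. CD357 was lower in unnamed cells, at 11.5 against 18. CD5, a negative regulator of receptor signals, was higher at 158 against 126, and CD43 at 65 against 48. The CD4 antibody itself was level, at 199 and 197. The quartile ranges of the 2 sets overlap for all of these antibodies.

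**Figure D5:**
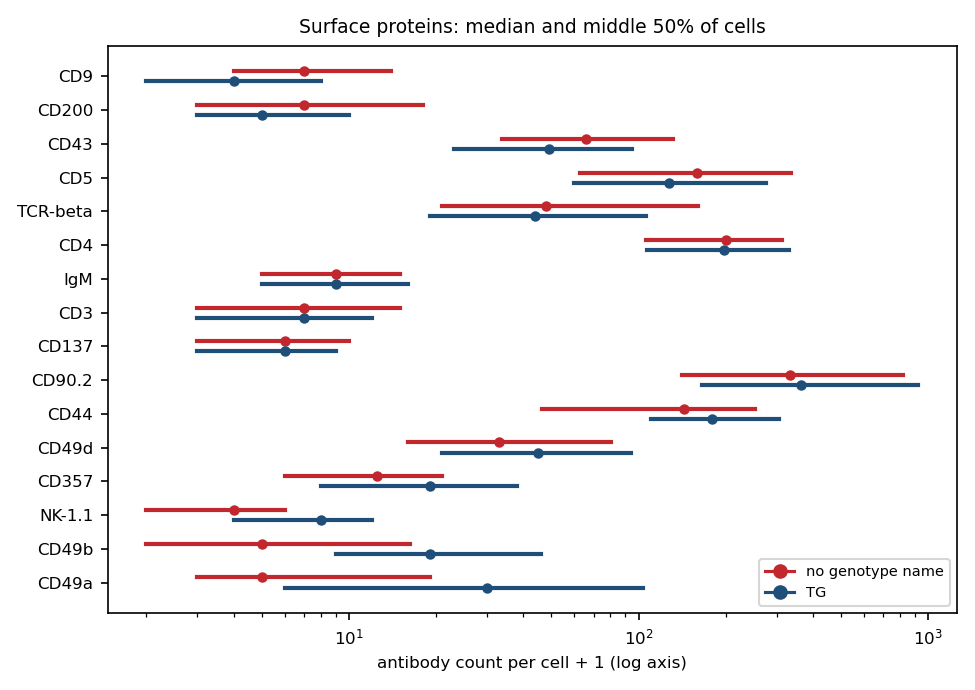
Counts per cell plus 1 (log axis) of antibodies with a median of at least 5 in either set, with points for the median and lines for the quartiles of unnamed and TG cells. CD49a (4 against 29) and CD49b (4 against 18) are furthest lower in unnamed cells, and CD4 (199 against 197) is level.

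Genes of the cell cycle summed to 7100 CPM in unnamed and 7263 CPM in all TG cells, with a median log2 ratio of -0.00 over 29 assessed genes (of 30). The median was 2.19 against TG cells named CD4 T, 2.83 without TG cells named NK or CD8 T, and -0.65 when unnamed cells outside the TG range of UMIs, genes and mitochondrial share were left out. In TG cells these UMIs lay mostly in cells named CD8αβ T, at 18012 CPM against 2688 CPM in those named CD4 T. Limits by name drop the TG cells named CD8αβ T and keep all unnamed cells. The medians of 2.19 and 2.83 therefore do not compare like cells. Mki67, a marker of cycling cells, was found in 8.33% of unnamed and 11.6% of TG cells thinned to 1000 UMIs, a difference of -3.28 points (-7.80 to 1.25). Immediate early genes were higher in unnamed cells than in all TG cells, with 22 of 29 assessed members (of 31) above 0, 1 at least 2-fold higher and a median log2 ratio of 0.31. Among TG cells the list stood at 6423 CPM in those named CD8αβ T, 15149 CPM in CD4 T and 15581 CPM in NKT, and the median was -0.00915 without TG cells named NK or CD8 T and 0.09 against those named CD4 T. Jun, a subunit of the AP-1 factor, stood at 1396 against 936 CPM (0.58, 0.48 to 0.68), which was 0.12 without TG cells named NK or CD8 T, and Tnfaip3, the feedback inhibitor of NF-κB, at 405 against 250 CPM (0.70, 0.51 to 0.89). WT cells held 1323 CPM of Jun and 569 CPM of Tnfaip3, nearer to the unnamed than to the TG cells.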

How the data were processed

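CD45+ liver cells of 2 capture libraries were profiled on the BD Rhapsody platform, which counts transcripts and 49 oligonucleotide-tagged antibodies per cell. Per the labels and methods the authors aligned reads to mm10 (GRCm38) with STAR in the BD Rhapsody pipeline (version 1.9 per the file headers), and the deposited gene and antibody values are UMI counts corrected for sequencing errors. The deposited metadata give each kept cell a genotype and a cell type, and the mitochondrial share as a percent by the authors. Their antibody totals matched 4647 of 4647 TG cells to the library.

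Cells were chosen as stated below. CD8 T cells held Cd8b1 and Cd3e but no Cd4, Klrb1c or Cd79a, and B cells held Cd79a but no Cd3e or Cd4. The members and all 28 gene lists were chosen with earlier results of these data known. Counts were summed per set and scaled to the set's total. The interval of a share is Clopper-Pearson, of a CPM exact Poisson, of a ratio exact conditional binomial and of a difference in shares Newcombe, all at 95%. A count of 0 took a pseudocount of 0.5 in ratios. Shares were compared after each cell was thinned to 1000 UMIs. Doublets were marked with Scrublet (scanpy 1.11.5, expected rate 5%) and kept, and 1.86% of the library was marked. Arithmetic was tested on simulated data.

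Named genes were list members with at least 50 UMIs (highest totals, highest and lowest ratios), 12 genes named for their role, and the 12 highest and 12 lowest ratios whose sign held under every scaling, leaving out the 6 genes of the rule, receptor segments, predicted genes and genes with over 50% of UMIs in 3 cells. Bcl6 (below 50 UMIs) and the genes of Foxp3 cells were named for their role. Alternatives included other cell sets, equal weight per cell, scaling by TMM factors (R 4.3.3, edgeR 4.0.16) and scaling that leaves ribosomal protein and mitochondrial transcripts out. Calculations used Python 3.11.15, numpy 2.4.6, scipy 1.17.1 and pandas 2.3.3. Normalised tables, the other genotypes and some items were not used here.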

Additional observations from a re-analysis of the deposited data

How the results depend on the processing

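Up to 14 alternatives were run for each result. No paired analysis was possible because both sets come from 1 library. All unnamed cells were kept when TG cells were limited to those the authors named CD4 T. In that setting 304 of 5462 genes were at least 2-fold higher in unnamed cells and 59 lower. The median log2 ratio of the naive list was then -0.11, of effector memory genes -0.40 and of chemokine receptors 0.16. That of CD8 T, NK and NKT markers was 2.52, and the Foxp3 difference was -6.98 points. There the log2 ratio of Ifng was 0.18, Tgtp2 -0.0152, Tbx21 0.12, Ikzf2 -1.02, Gzma 1.15, Cx3cr1 1.14, S1pr5 0.64, Sulf2 0.46 and Tbkbp1 0.14. A pair of alternatives was chosen after seeing the data. Without TG cells named NK or CD8 T, 214 of 6342 genes were at least 2-fold higher and 72 lower. Immediate early genes then had a median of -0.00915 and CD8 T, NK and NKT markers 0.95, with Gzma at 1.36, Cx3cr1 at 1.95 and S1pr5 at 0.49. Without cells holding over 1% of B, myeloid or dendritic marker UMIs, 57 of 6661 genes were at least 2-fold higher and 69 lower. With all cells these counts were 138 and 65 of 6952, so the excess of higher genes was not kept. Thinning left 2629 genes, of which 32 were higher and 30 lower, and 3 checkpoint genes with a median of -0.15. Equal weight per cell gave 123 higher and 101 lower genes. A minimum of 20 UMIs gave 352 higher and 183 lower of 9080 genes, and 1 UMI in each set 1144 and 517 of 11963. The cause of these changes was not tested, except that minimums change the genes assessed.

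Over 12 alternatives the log2 ratio of Tgfbr2 stayed between -1.29 and -0.95, Irf1 between 0.45 and 0.76, Iigp1 between 0.69 and 1.43 and Il1rl1 between -5.72 and -3.84, and the GTPase median between 0.17 and 0.56. With 1 library and pooled mice, no interval covers the spread between animals, and genes with under 50 UMIs were not resolved at this depth.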

Other observations

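Between the unnamed and TG cells chosen by the CD4 rule, the SOCS and STAT genes had a median log2 ratio of 0.27 over 15 assessed members with 0 past 2-fold, and 0.01 against TG cells named CD4 T. The 12 assessed heat shock chaperones had a median of 0.20 and summed to 7775 CPM in unnamed and 6681 CPM in TG cells, with 10 of 12 above 0. The 22 T cell identity genes had a median of -0.18, the 13 assessed common gamma chain cytokine receptor genes -0.21 and the 14 assessed glycolysis genes 0.01. Receptors for chemokines and retention had a median of -0.28 over 18 assessed genes, with 1 at least 2-fold higher and 3 at least 2-fold lower, and this median was 0.16 against TG cells named CD4 T.

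The helper lists other than Th1 rested on few genes. The 7 assessed Th2 genes had a median log2 ratio of -0.24, the 7 assessed genes of follicular helper cells 0.43 with 2 at least 2-fold higher, the 2 assessed Th17 genes 0.05, the 3 assessed gamma delta T cell markers 0.01 and the 1 assessed sex-linked gene 0.07. Against TG cells named CD4 T the Th2 median was -0.72 and the follicular helper median 0.01. The authors called 238 TG cells of the library CD4 T, of which 108 met the CD4 rule, while 42 held no Cd4 UMI.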
